A study of Homo sapiens with 6 samples.

Results

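The regions described here lie beside the centromeres: every region of 4 deposited ChIP-seq lists whose centre falls within 5 Mb of the 3 Mb unassembled centromere block of an autosome in hg19, on assembled bases. There were 5631 such regions among the 126184 of the 4 lists. Of KDM3B regions, 824 of 17638 in HCT116/Scrsh cells and 384 of 8046 in HCT116/ABsh-1 cells were members. Of H3K9me2 regions, 468 of 11645 in HCT116/Scrsh and 3955 of 88855 in HCT116/ABsh-1 were members. The rest of the same autosomes, with 118804 regions, served for comparison. The rule used position only, so neither scores, widths nor changes between cells chose a member.

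HCT116 is a human colorectal cancer cell line. HCT116/Scrsh cells carried a scrambled short hairpin RNA, and HCT116/ABsh-1 cells carried a hairpin directed at both KDM3A and KDM3B. The sample labels call the reagent a siRNA, while the methods describe stable short hairpin lines, and no time point is given. Each antibody was sequenced once per cell population, so no difference between the cell populations has a replicate check and no p-value is given for one. Here "control" refers to HCT116/Scrsh and "depleted" to HCT116/ABsh-1. 1 hairpin construct was profiled, so its other effects cannot be told apart from loss of KDM3A/B. Intervals are exact 95% intervals and cover counting error only. Neighbouring regions are not independent of each other and library depth is unknown.

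Human centromeres are built on alpha satellite, a tandem repeat whose unit is about the length of DNA wrapped on a nucleosome, and some units carry the CENP-B box, the site bound by the centromere protein CENP-B. Classical satellites built on the pentamer GGAAT lie beside it, and H3K9 methylation is a known mark of this heterochromatin. KDM3B is a histone demethylase that acts mainly on mono- and dimethylated H3K9. The assembled flanks also hold recent segmental duplications and gene families such as POTE, ANKRD, olfactory receptor and zinc finger genes.

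The flanks held 176 Mb of assembled sequence, 6.55% of the autosomes, on 37 sides of the 22 gaps (18 short-arm and 19 long-arm sides). Their GC content was 40.8%, against 41.0% in the rest. Of sampled 50-base sequences, the read length used, 82.6% occurred once in the assembled genome in the flanks and 93.0% in the rest. Copies in unassembled sequence could not be counted, so "unique" here means unique in the assembly and can overstate uniqueness beside the gaps. No member had its centre on unassembled bases.

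The sequences under the members show what lay closest to the gaps. Shown first are stretches from the member of highest score in each list and from the highest-scoring KDM3B member in alpha-satellite-like repeat that was present after depletion without an overlapping control region. The deposited score is a whole number whose meaning is not given in the sources used here, and it served only to rank regions within a list. Capitals mark bases identical to the base 1 alpha-satellite unit further on, so long runs of capitals show the period. The reference strand of hg19 is written.
KDM3B, control, chr6:58777765-58777935: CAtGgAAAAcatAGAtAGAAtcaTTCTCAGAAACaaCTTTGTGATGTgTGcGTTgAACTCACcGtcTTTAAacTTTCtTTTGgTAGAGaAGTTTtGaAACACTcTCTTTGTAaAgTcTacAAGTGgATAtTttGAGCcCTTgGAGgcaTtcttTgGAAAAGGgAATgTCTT
KDM3B, depleted, chr6:58777915-58778085: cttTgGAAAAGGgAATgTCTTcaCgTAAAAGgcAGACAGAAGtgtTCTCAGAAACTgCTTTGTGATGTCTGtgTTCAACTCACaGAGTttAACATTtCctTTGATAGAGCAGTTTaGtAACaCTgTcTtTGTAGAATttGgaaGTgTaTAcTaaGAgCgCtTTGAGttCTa
H3K9me2, control, chr6:58776415-58776585: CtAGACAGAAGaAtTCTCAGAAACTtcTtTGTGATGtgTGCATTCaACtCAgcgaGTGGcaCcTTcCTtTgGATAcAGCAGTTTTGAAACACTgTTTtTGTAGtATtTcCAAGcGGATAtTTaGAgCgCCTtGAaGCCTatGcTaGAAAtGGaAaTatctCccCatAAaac
H3K9me2, depleted, chr7:61969165-61969335: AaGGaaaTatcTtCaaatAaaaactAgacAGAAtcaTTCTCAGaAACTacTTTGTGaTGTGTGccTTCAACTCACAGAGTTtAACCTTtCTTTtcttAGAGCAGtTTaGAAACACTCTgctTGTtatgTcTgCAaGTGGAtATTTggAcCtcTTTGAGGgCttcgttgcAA
KDM3B, depleted, chr18:18519015-18519185: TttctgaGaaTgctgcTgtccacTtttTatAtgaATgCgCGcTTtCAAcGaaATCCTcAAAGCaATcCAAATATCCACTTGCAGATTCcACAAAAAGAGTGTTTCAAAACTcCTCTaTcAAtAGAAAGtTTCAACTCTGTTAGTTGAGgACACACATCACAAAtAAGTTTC
In these stretches 73.1%, 73.7%, 70.2%, 63.2% and 73.7% of bases, in the order shown, equalled the base 1 period further on. The chromosome 18 stretch and the chromosome 10 stretch shown later were chosen after their values were seen. A KDM3B control region lay near each of these members without overlapping it, at chr18:18518101-18518200 and chr10:42384501-42384600. The same period appeared in the members nearest to a gap in both H3K9me2 lists.
H3K9me2, control, chr2:92321015-92321185: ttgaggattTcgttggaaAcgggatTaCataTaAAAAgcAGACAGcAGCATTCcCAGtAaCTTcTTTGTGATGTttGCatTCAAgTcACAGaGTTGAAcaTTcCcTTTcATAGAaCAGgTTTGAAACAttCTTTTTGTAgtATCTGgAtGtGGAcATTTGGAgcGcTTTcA
H3K9me2, depleted, chr5:49405801-49405900: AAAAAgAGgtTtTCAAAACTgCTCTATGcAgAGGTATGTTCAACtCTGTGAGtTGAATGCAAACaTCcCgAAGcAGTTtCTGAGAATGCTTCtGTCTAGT
The chromosome 2 member lay 5.07 kb from the gap and its stretch holds 1 CENP-B box. The chromosome 5 member lay 0.210 kb from the gap, and 85.0% of its bases matched the next period. Measured over the 1 kb around its centre, a span that reached into unassembled bases, the identity was 39.6%. Under the 40% limit set out below, that member counted as lying outside repeats.

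The single KDM3B member nearest to a gap lay in pentamer repeat in each list, while the next nearest ones had the alpha-satellite period. Capitals mark the pentamer GGAAT (or ATTCC, its reverse complement) in these 2 and in the highest-scoring KDM3B member in pentamer repeat that had no overlapping control region.
KDM3B, control, chr17:25265301-25265400: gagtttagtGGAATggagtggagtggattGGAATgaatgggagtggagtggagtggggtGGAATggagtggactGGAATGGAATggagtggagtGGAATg
KDM3B, depleted, chr4:49647101-49647200: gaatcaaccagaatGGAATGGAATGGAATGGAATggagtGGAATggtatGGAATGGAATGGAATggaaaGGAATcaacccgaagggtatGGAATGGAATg
KDM3B, depleted, chr10:42385115-42385285: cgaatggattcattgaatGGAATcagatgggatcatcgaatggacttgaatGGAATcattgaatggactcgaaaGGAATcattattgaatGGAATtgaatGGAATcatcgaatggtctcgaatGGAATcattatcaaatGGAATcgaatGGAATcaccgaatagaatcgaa
The pentamer occurred 6, 11 and 8 times in these stretches. The chromosome 17 member lay 2.34 kb from the gap with a score of 13, and the chromosome 4 member 13 kb from the gap with a score of 14.

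The first question was whether either antibody gave more regions beside the gaps than elsewhere. It did not: all 4 lists were sparser in the flanks. KDM3B regions numbered 4.68 per assembled Mb in the flanks and 6.54 in the rest in control cells, a density ratio of 0.716 (interval 0.667 to 0.768). In depleted cells they numbered 2.18 and 3.0 per Mb, a ratio of 0.728 (0.655 to 0.807). Only 3.31% and 0.636% of 1 kb windows of the flanks met the limits for alpha-satellite and pentamer repeat set out below. These densities therefore mainly concern other sequence. H3K9me2 regions were also fewer in the flanks. In control cells the flanks held 2.66 and the rest 4.32 per Mb, a ratio of 0.616 (0.560 to 0.676). After depletion the flanks held 22.5 and the rest 33.5 per Mb, a ratio of 0.671 (0.650 to 0.693). Each of the 4 intervals lay below 1. Counted per base whose 50-base sequence is unique in the assembly, the ratios were nearer to 1 but still below it, at 0.807, 0.820, 0.694 and 0.756 in the order given. Copies in the unassembled blocks are not part of this count.

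Members were short, as in the rest. A single 100-bp window made up 52.4% of KDM3B members in control cells, 59.1% in depleted cells, 70.7% of H3K9me2 members in control cells and 43.2% in depleted cells. The median score of the members was 24, 18, 14 and 29 in these lists, against 24, 17, 13 and 32 in the rest. Their mean GC content was 53.5%, 54.9%, 54.8% and 61.5%, above the 40.8% of the flanks in every list. Regions of the rest were similar, at 53.7%, 55.9%, 52.8% and 61.4%.

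For 3 of the lists density was lower in the band nearest to the gap than in the farthest band of the flanks. H3K9me2 regions of depleted cells numbered 10.8 per Mb (9.25 to 12.5) within 0.5 Mb of a gap, 13.9 between 0.5 and 1 Mb, 24.2 between 1 and 2 Mb and 27.5 (25.8 to 29.3) between 4 and 5 Mb. KDM3B regions of control cells numbered 2.45 per Mb (1.76 to 3.32) in the nearest band and 5.84 (5.08 to 6.69) in the farthest band of the flanks. H3K9me2 regions of control cells numbered 1.97 (1.36 to 2.77) and 3.26 (2.69 to 3.91) per Mb in the same bands, with intervals that met. KDM3B regions of depleted cells differed from these. They numbered 2.81 per Mb (2.06 to 3.74) in the nearest band, 1.58 (1.04 to 2.30) in the next and 2.87 (2.34 to 3.48) between 4 and 5 Mb. The share of unique 50-base sequences moved with distance too, from 68.3% within 0.5 Mb to 86.3% between 4 and 5 Mb. Per Mb of unique sequence the nearest and farthest bands held 3.59 and 6.77 KDM3B regions in control cells and 4.12 and 3.32 in depleted cells. For H3K9me2 they held 2.89 and 3.78 regions in control cells and 15.8 and 31.9 in depleted cells.

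**Figure D1:**
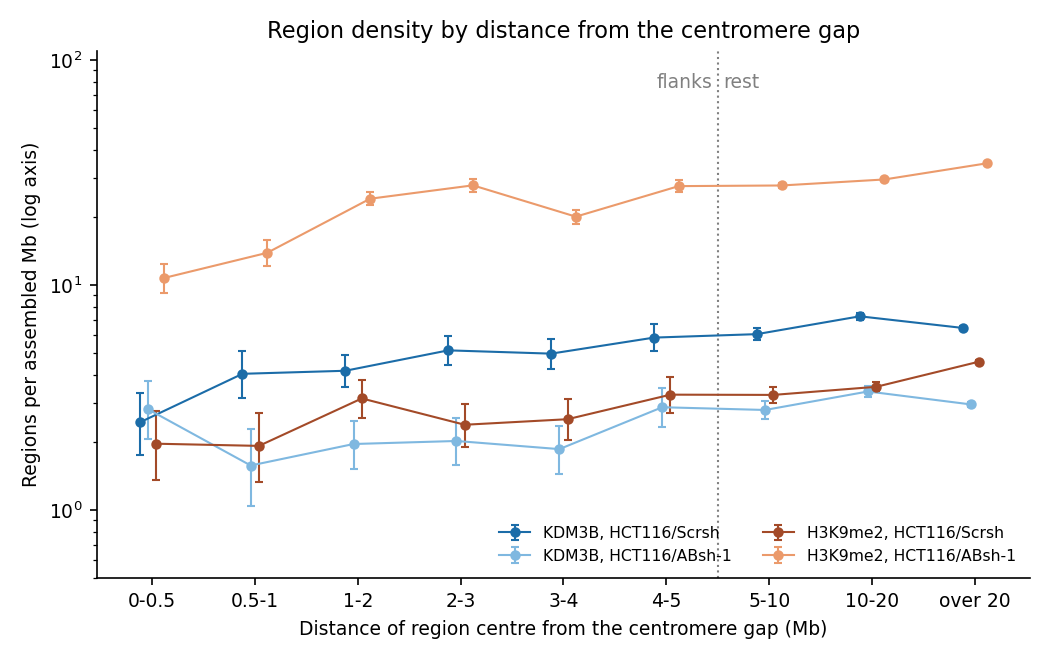
Regions per assembled Mb (log axis) against the distance of the region centre from the centromere gap (Mb), for the 4 lists. Points are densities and bars exact 95% Poisson intervals. The dotted line marks the 5 Mb limit, and only KDM3B of depleted cells is as dense in the nearest band (2.81 per Mb) as between 4 and 5 Mb (2.87 per Mb).

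Density was similar on both sides of the 5 Mb limit. The members next to the limit and the nearest regions beyond it lay 4430.5 bp inside and 3406.5 bp outside it for KDM3B in control cells, and 449.5 bp inside and 1950.5 bp outside it for H3K9me2 in depleted cells. Between 5 and 10 Mb the 4 lists numbered 6.05, 2.79, 3.25 and 27.7 regions per Mb, close to the values between 4 and 5 Mb.

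The deficit was spread over most autosomes but was not uniform. The flanks were sparser than the rest of the same autosome in 17 of 22 autosomes for KDM3B in both cell populations and in 18 of 22 for H3K9me2 in both. Chromosome 19, the most gene-dense human autosome, held 1.93 KDM3B regions per Mb of control cells in the flanks and 21.1 in the rest. Chromosome 14 showed the opposite, with 12.4 per Mb in its long-arm flank and 6.09 in the rest, a ratio of 2.04 that depleted cells also gave (2.04). Chromosome 18 was denser in its flanks in all 4 lists, at ratios of 1.56, 2.23, 1.10 and 1.5, and so was chromosome 2, at 1.11, 1.45, 1.23 and 1.57. Chromosome 9 held 1 KDM3B member in control cells and 5 H3K9me2 members in depleted cells in 4.25 Mb, of which 11.8% of 50-base sequences were unique. Chromosomes 22, 17 and 20 held 703, 556 and 503 of the H3K9me2 members of depleted cells, together 44.6%.

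**Figure D2:**
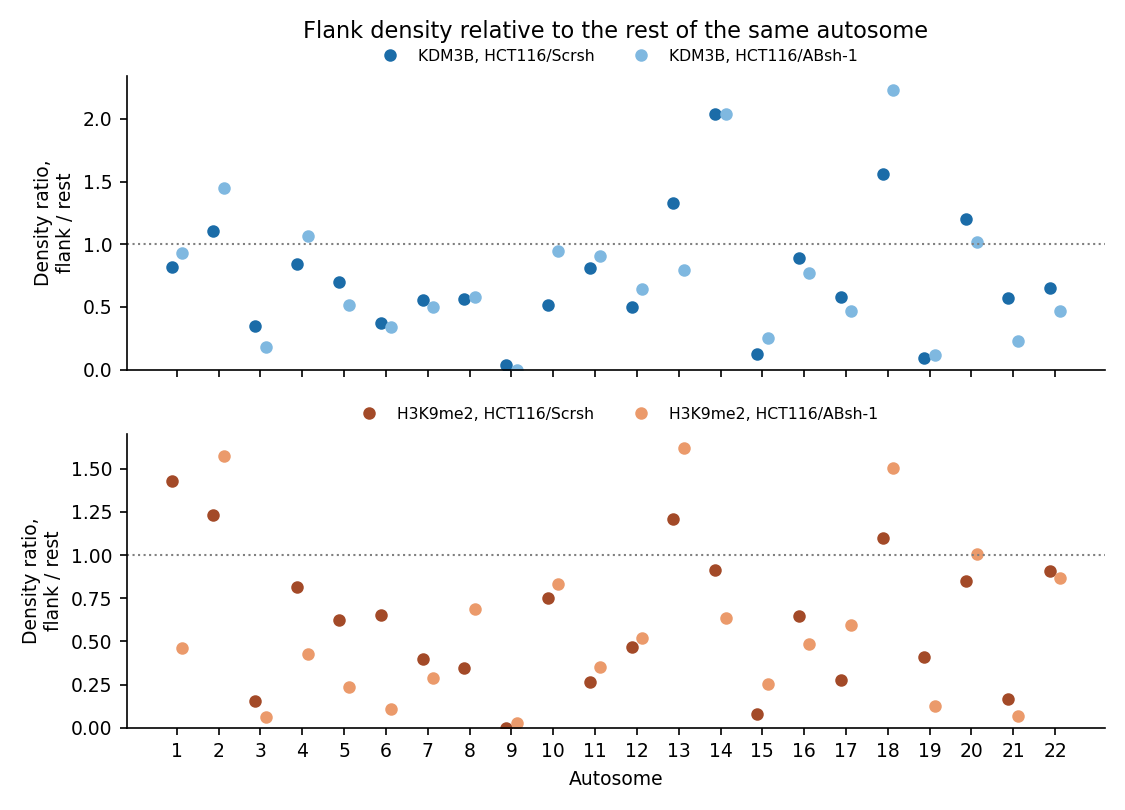
Density ratio of the flanks to the rest of the same autosome, by autosome, for KDM3B (top) and H3K9me2 (bottom) in both cell populations. Each point is 1 list and the dotted line is equal density. Chromosomes 2 and 18 lie above the line in all 4 lists, while chromosomes 3, 9 and 15 lie far below it in all 4.

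Although sparse, the flanks held regions of extreme score. In both KDM3B lists the 3 highest scores of all autosomes lay in the flanks, at the same 3 places. The first was chr6:58776401-58779300 in control cells, an intergenic region of 2900 bp 52.3 kb from the gap with a score of 6985, and chr6:58776601-58779400 in depleted cells with a score of 6248. The highest score anywhere in the rest of the autosomes was 699 in control and 772 in depleted cells. At the same place lay the highest H3K9me2 score of all autosomes in control cells (chr6:58776301-58776700, 377) and the second-highest member score of depleted cells (chr6:58776201-58776900, 985). Of the 50-base sequences in the control KDM3B region, 81.3% were unique in the assembly. The 1 kb around its centre had the alpha-satellite period, at 57.9% identity. Whether reads from unassembled copies of the repeat added to these scores was not tested. The next protein-coding start site, that of PRIM2 (a DNA primase subunit), lay 1385 kb away.

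The second place was chr1:121484501-121485300, intergenic and 50.5 kb from the gap, with KDM3B scores of 2586 in control and 3174 in depleted cells and no H3K9me2 region in either. The last was chr21:9827001-9827500, with KDM3B scores of 1220 and 1336, which lay 1.05 kb from the start of the microRNA gene MIR3687. Only 23.5% of its 50-base sequences were unique, and no H3K9me2 region overlapped it. The highest H3K9me2 score among members of depleted cells was at chr7:61968901-61969600, with 1116. It lay in intergenic alpha satellite 915 kb from the gap and overlapped regions of all other lists, with scores of 403 and 581 for KDM3B and 84 for H3K9me2 of control cells. The next H3K9me2 member scores of control cells lay outside such repeats. One was chr17:21318601-21319300, in an exon of KCNJ12 (an inward-rectifier potassium channel gene with a near-identical paralogue, KCNJ18), with scores of 128 in control and 477 in depleted cells. The other was chr16:33959401-33959600, intergenic, with 118 and 348.

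How far the top of each list fell in the flanks differed between the lists. Among the 50 highest scores, 7 (14%, interval 5.82 to 26.7%) were members for KDM3B in control cells and 18 (36.0%, 22.9 to 50.8%) in depleted cells. For H3K9me2 the number was 7 (14%) in control cells and 2 (4%, 0.488 to 13.7%) in depleted cells. In the whole lists members made up 4.78%, 4.86%, 4.14% and 4.49% of autosomal regions. Among the 50 highest scores the share was thus above that of the whole list in 3 lists, while the H3K9me2 interval of depleted cells held the share of its whole list. In the top 1% of regions by score, members made up 6.98% (3.66 to 11.9%) for KDM3B in control cells, an interval that held 4.78%. The share was 25.3% (16.2 to 36.4%) for KDM3B in depleted cells. For H3K9me2 it was 13.3% (7.62 to 20.9%) in control and 3.30% (2.22 to 4.70%) in depleted cells.

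**Figure D3:**
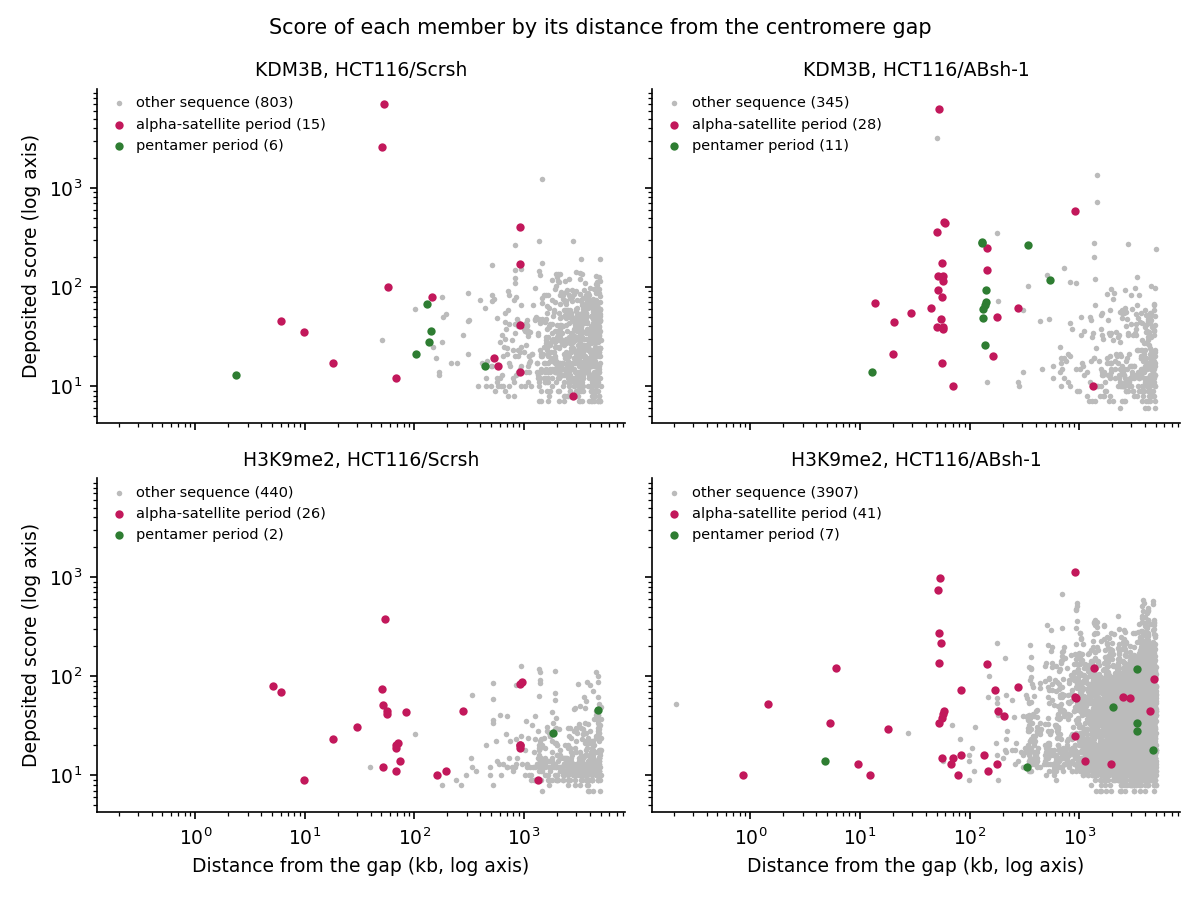
Deposited score (log axis) of every member against its distance from the centromere gap (kb, log axis), 1 panel per list. Grey points are members outside tandem repeats, and coloured points lie in repeats of alpha-satellite or pentamer period, with their numbers in the keys. The KDM3B panel of depleted cells has 28 and 11 coloured points of these kinds against 15 and 6 in control cells, and 36 of its 39 lie within 0.5 Mb of a gap.

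The second question was whether the change after depletion differed beside the gaps. Over the whole flanks it did not detectably. KDM3B regions numbered 824 in control and 384 in depleted cells, a ratio of 0.466, and 0.458 in the rest. The odds ratio of the flanks against the rest was 1.02 (0.896 to 1.15). H3K9me2 regions numbered 468 and 3955, a ratio of 8.45, and 7.75 in the rest, with an odds ratio of 1.09 (0.988 to 1.20). Both intervals held 1 and reached to 1.15 and 1.20, so a difference from the rest was not detectable at these counts. The H3K9me2 call depended on the setting. With regions less than 1 kb apart merged, the odds ratio was 1.19 (1.07 to 1.32), an interval above 1. The interval also lay above 1 in 9 of 22 fits with 1 autosome left out, those without chromosome 1, 5, 6, 7, 14, 16, 18, 19 or 21, and was highest without chromosome 19 at 1.15 (1.04 to 1.28). KDM3B members were fewer after depletion in 21 of 22 autosomes and equal in chromosome 15, with 4 in each. H3K9me2 members were more numerous in 21 of 22, with chromosome 6 the exception at 18 and 17, and chromosome 17 the highest ratio at 22.2.

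The band within 0.5 Mb of a gap was the exception for KDM3B. It held 41 regions in control and 47 in depleted cells, a ratio of 1.15 against 0.458 in the rest, and the odds ratio was 2.5 (1.61 to 3.90). With regions less than 1 kb apart merged it was 1.82 (1.11 to 2.94), and in the higher-scoring 50% of each list 3.87 (2.24 to 6.86). In the 5 other bands of the flanks the KDM3B odds ratio lay between 0.821 and 1.07, and every interval held 1. The median score in the nearest band was 28 in control and 62 in depleted cells, while over all members it was 24 and 18. H3K9me2 in the nearest band numbered 33 and 180, an odds ratio of 0.703 (0.483 to 1.05). Its only band whose interval excluded 1 was that from 2 to 3 Mb, with 85 and 985 regions and an odds ratio of 1.49 (1.20 to 1.89). The bands were compared with earlier results of these data known, and 12 odds ratios were computed in this family.

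**Figure D4:**
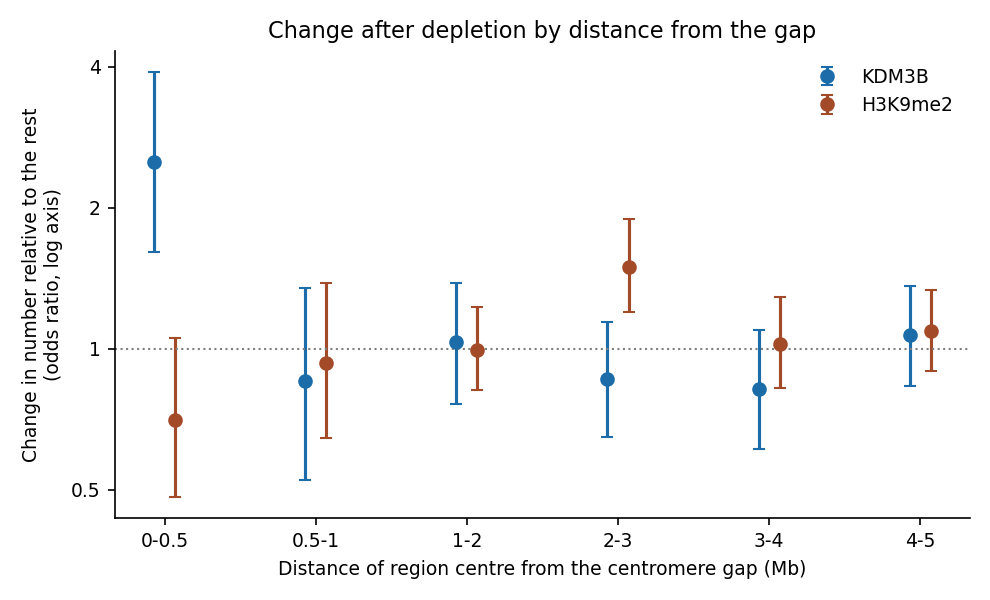
Odds ratio (log axis) of the change in region number after depletion, each distance band of the flanks against the rest of the autosomes, for KDM3B and H3K9me2. Points are odds ratios and bars exact 95% intervals, and the dotted line marks an equal change. KDM3B within 0.5 Mb of a gap stands apart at 2.5.

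To describe the sequence of this band, each region was assigned by the 1 kb around its centre. It was called an alpha-satellite-period repeat when at least 40% of bases equalled the base 1 alpha-satellite unit further on (allowing 2 bases more or less), and a pentamer-period repeat when at least 40% equalled the base 5 positions further on. Unassembled bases counted as not equal, so a region very close to a gap could fall under the limit. Of all 1 kb windows of the flanks, 3.31% and 0.636% met these limits, and of the rest 0.112% and 0.0812%. Over whole autosomal lists, 0.279% of KDM3B regions of control cells, 0.772% of KDM3B regions of depleted cells, 0.770% of H3K9me2 regions of control cells and 0.310% of H3K9me2 regions of depleted cells lay in either repeat.

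KDM3B regions in repeats were more numerous in depleted than in control cells, unlike those outside repeats. In the flanks 21 of 824 control regions (15 of alpha-satellite and 6 of pentamer period) and 39 of 384 depleted regions (28 and 11) lay in repeats, while outside repeats there were 803 and 345. The odds ratio of repeats against other sequence was 4.32 (2.44 to 7.85), and 7.22 (3.55 to 15.7) in the higher-scoring 50% of each list. The repeat limits were set after seeing the data. Several of the depleted regions in repeats lay close together, as on chromosomes 10, 18 and 19, so they are not independent. No such ratio with nearby regions merged was computed. In the rest of the autosomes repeats held 27 and 22 KDM3B regions, with an odds ratio of 1.78 (0.965 to 3.25). The chromosome 1 place of high score counted as a repeat in control cells, at 43.6% identity, and fell just under the limit in depleted cells, at 39.7%. Median scores in the flank repeats were 35 in control and 69 in depleted cells, and outside them 24 and 17. With at least 50% identity there were 13 and 15 regions and the odds ratio was 2.53 (1.11 to 5.85), and with at least 60% there were 8 and 5, with 1.35 (0.344 to 4.70). At the strictest limit the number was thus lower after depletion, with few regions left. H3K9me2 in repeats numbered 28 and 48 regions, against 440 and 3907 outside them, an odds ratio of 0.193 (0.117 to 0.323). In the rest of the autosomes they numbered 59 and 225, an odds ratio of 0.490 (0.366 to 0.665), so the ratio in repeats was lower than in other sequence there too. In the flanks the interval stayed below 1 at every identity limit tried.

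Within 0.5 Mb of a gap, 14 of 41 KDM3B regions of control cells and 36 of 47 of depleted cells lay in repeats. Outside repeats this band held 27 and 11, a ratio of 0.407 and so close to the 0.458 of the rest. This depended on the identity limit. With a minimum identity, as a fraction, of 0.35 and 0.45 the ratio outside repeats was 0.370 and 0.517. At 0.5 and 0.6 it was 1.03 and 1.26. The odds ratio of repeats against other sequence in this band was then 1.57 (0.522 to 4.98) and 0.456 (0.0902 to 1.97). At the main limit, chromosomes 10, 18 and 2 held 23 of the 36 depleted regions in repeats, with the other 13 on 6 autosomes. Their median score was 35.5 in control and 67 in depleted cells. Of the 36 regions, 4 overlapped a KDM3B region of control cells, among them the chromosome 6 region. Of all KDM3B regions of depleted cells 56.6% did so, of members 51.0% (45.9 to 56.1%) and of those within 1 Mb of a gap 33.8% (23.2 to 45.7%). A region without such an overlap was not always at a new place. The depleted region chr10:42396701-42396900 began where the control region chr10:42396601-42396700 ended. Within chr6:58773801-58779400 lay 3 KDM3B regions of depleted cells and 1 of control cells. Within chr2:92296201-92308200 the numbers were also 3 and 1. How many of the 36 lay near a control region in total was not counted, so the share without overlap is not a share of new places. On chromosome 19, KDM3B had no region of control cells within 0.5 Mb and 5 of depleted cells, all of alpha-satellite period, with scores between 48 and 359. On chromosome 18 all 5 such regions of depleted cells lay between chr18:18517101 and chr18:18520400, with scores between 38 and 450. Unlike on chromosome 19, a control region of alpha-satellite period lay in the same span, chr18:18518101-18518200 with a score of 99. How the input libraries differed at these repeats was not tested, since they were not analysed here.

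Motif matches, counted without an identity limit, gave the same direction. They concern the same members and the same kinds of repeat, so they are not separate support. The CENP-B box, taken as TTCG, 4 bases of any kind, A, 2 bases of any kind and CGGG and searched on both strands in the 300 bases around each centre, was present in 6 of 824 KDM3B members of control cells (0.728%) and in 15 of 384 of depleted cells (3.91%). Of H3K9me2 members it was present in 8 of 468 (1.71%) and in 11 of 3955 (0.278%). Of all assembled 300-base windows, 0.151% in the flanks and 0.00924% in the rest held it. The pentamer GGAAT, 2 times in a row, was present in 8 (0.971%) and 10 (2.60%) KDM3B members and in 1 (0.214%) and 3 (0.0759%) H3K9me2 members, against 0.412% of flank windows. The pentamer intervals of control and depleted cells met, at 0.420 to 1.90% and 1.26 to 4.74% for KDM3B. They met for H3K9me2 too. These matches are descriptions of letters and do not show binding of any protein.

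The third question was whether regions recurred in the same place. Of KDM3B members of control cells, 198 of 824 (24%, 21.1 to 27.1%) were overlapped by a region of depleted cells. The share was 26.0% in the rest and 25.9% over the list. Of H3K9me2 members of control cells, 220 of 468 (47.0%, 42.4 to 51.6%) were overlapped by a region of depleted cells. That was above the 35.6% (34.6 to 36.5%) of the rest and the 36.0% of the list, and the intervals did not meet. Members that recurred had higher scores in control cells than those that did not, with medians of 53.5 and 19 for KDM3B and of 17.5 and 12 for H3K9me2.

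The KDM3B protein and the H3K9me2 mark rarely shared a place. The overlaps were counted as KDM3B regions, and several regions can lie at 1 place. In control cells 9 of 15 such regions lay in the flanks, and in depleted cells most lay outside them. Of KDM3B regions of control cells, 15 of 17234 (0.0870%) overlapped an H3K9me2 region of the same cells. Members made up 9 of the 15, that is 1.09% (0.501 to 2.06%) of 824 members, against 6 of 16410 (0.0366%, 0.0134 to 0.0796%) in the rest. Of the 9, 7 lay within 1 Mb of a gap. In depleted cells 1.13% of all KDM3B regions overlapped an H3K9me2 region. The overlap was 8 of 384 members (2.08%, 0.904 to 4.06%) and 81 of 7522 in the rest (1.08%, 0.856 to 1.34%), and these intervals met.

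**Figure D5:**
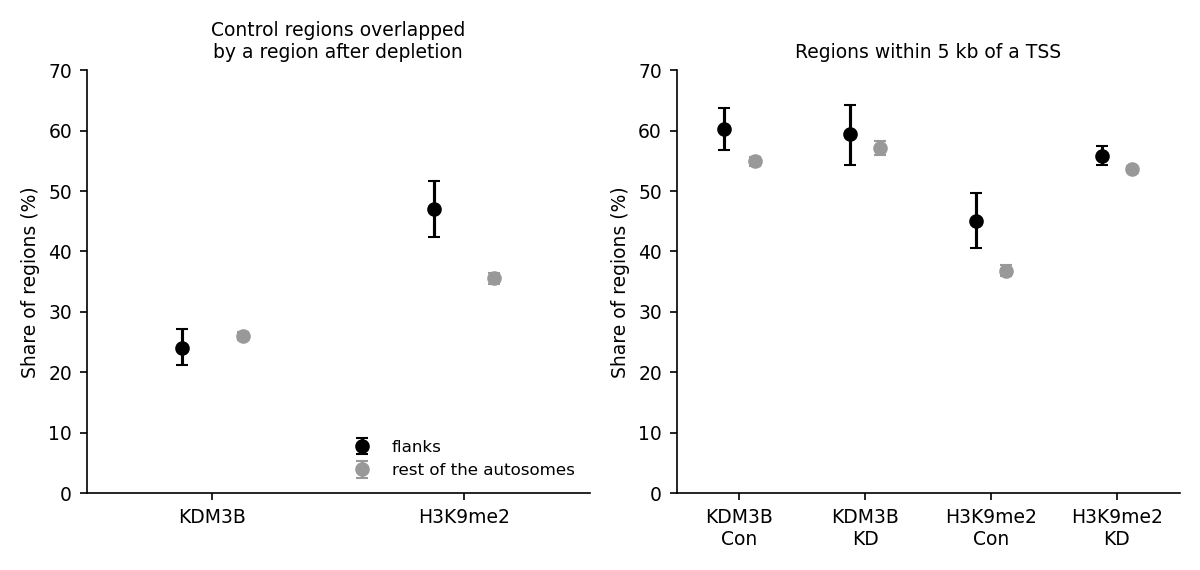
Left, share of control regions (%) overlapped by a region of the same antibody after depletion. Right, share of regions (%) within 5 kb of a transcription start site, with Con for control and KD for depleted cells. Black points are the flanks, grey points the rest of the autosomes and bars exact 95% intervals. The largest gaps between black and grey are those of H3K9me2 of control cells, 47.0% against 35.6% on the left and 45.1% against 36.8% on the right.

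Over all members, regions lay near start sites more often than the bases of the flanks did. Of KDM3B members, 60.3% (56.9 to 63.7%) in control and 59.4% (54.3 to 64.3%) in depleted cells lay within 5 kb of an annotated transcription start site (TSS), against 55.2% and 57.2% over the whole lists. Of H3K9me2 members, 45.1% (40.5 to 49.7%) in control and 55.9% (54.3 to 57.4%) in depleted cells did so, against 37.2% and 53.8% over the lists. With protein-coding start sites alone the H3K9me2 share of depleted cells turned, at 38.9% (37.4 to 40.5%) of members and 41.7% of the rest. Such stretches made up 32.1% of flank bases and 27.1% of the rest, so the flanks themselves hold more annotated start sites. For protein-coding genes alone they made up 13.9% and 16.1%. Within 1 Mb of a gap the shares were lower in every list, at 43.6% (34.2 to 53.4%) and 32.4% (22 to 44.3%) for KDM3B in control and depleted cells and 31.8% (20.9 to 44.4%) and 47.1% (42.3 to 52.0%) for H3K9me2.

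Windows of 5 kb on either side of the canonical TSS were then read for each of 1184 protein-coding genes of the flanks. A KDM3B region was present in 269 (22.7%) in control and 150 (12.7%) in depleted cells, against 28.7% and 15.2% of all 18978 autosomal genes. An H3K9me2 region was present in 51 (4.31%) and 380 (32.1%), against 6.28% and 42.0%. No region of any list was present in 588 flank genes (49.7%, 46.8 to 52.6%), and in 36.4% of genes of the rest. Genes with KDM3B in control cells only and H3K9me2 in depleted cells only numbered 54 (4.56%, 3.44 to 5.91%), and 6.04% of genes in the rest.

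By covered bases, the KDM3B windows of control cells were led by ID1, an inhibitor of basic helix-loop-helix transcription factors on chromosome 20, 0.824 Mb from the gap. KDM3B covered 2500 bases there in control and 500 in depleted cells, with no H3K9me2 in either. YARS2 (mitochondrial tyrosyl-tRNA synthetase) had 900 and 500 bases, and ZDHHC5 (a protein palmitoyltransferase) had 900 and 1000, so that KDM3B did not cover less of every leading window after depletion. MAP2K3, a kinase upstream of p38, and TMEM253 each had 800 bases in control and 100 in depleted cells. H3K9me2 of depleted cells covered 100 and 200 bases of these last windows and none of the first 3.

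The leading H3K9me2 windows held no KDM3B in either cell population. SYT15, a synaptotagmin gene on chromosome 10, had 1400 covered bases in control and 5301 in depleted cells. Its near-identical copy SYT15B, annotated at almost the same place, had 1100 and 4701, so the pair counts as 1 place. TBX1, a T-box transcription factor of the chromosome 22 flank, had 700 and 5300 bases. CLDN5 (a tight junction claudin) and SEPTIN5 (a septin) had none in control and 4668 and 3875 in depleted cells. ESS2 and GSC2, neighbours on chromosome 22, each had 800 in control and 1664 and 2200 in depleted cells. Hence 5 of these 7 genes lay in the 22q flank.

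The same flank held the largest cluster of members. Chromosome 22 was dense in H3K9me2 of depleted cells throughout, with 149.6 regions per Mb in the flank and 172.5 in the rest. When members of any list less than 10 kb apart were joined, they formed 1648 clusters, of which 677 held H3K9me2 of depleted cells alone and 41 held all 4 lists. The 5 clusters with all lists and most covered bases all lay on chromosome 22. The first, chr22:20097601-20310400, held 126 members over DGCR8 (a subunit of the microRNA processing complex), TRMT2A, RANBP1, ZDHHC8, CCDC188, RTN4R and DGCR6L. H3K9me2 of depleted cells covered 64900 bp of it with 109 regions and that of control cells 300 bp with 3, while KDM3B numbered 10 regions in control and 4 in depleted cells. Others were chr22:19691501-19812600 with SEPTIN5, GP1BB, TBX1 and GNB1L among its genes, chr22:19856301-19928500 with TXNRD2, and chr22:18222101-18313100 with BID and MICAL3. Of the 41 clusters with all 4 lists, 8 lay within 1 Mb of a gap, where 205 of the 1648 clusters lay, and among these were the alpha-satellite places on chromosomes 6 and 7.

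The gene families for which these flanks are known were read in the same 5 kb windows, pseudogenes included. Of 8 POTE genes in the flanks, 1 had a region, POTEA, with 300 bases of H3K9me2 in control and 400 in depleted cells. Of 93 immunoglobulin kappa variable segments, 2 had KDM3B in control cells (IGKV4-1 and the orphon IGKV1OR22-1), none had it in depleted cells, and 2 orphons had H3K9me2 in depleted cells only. Of 266 olfactory receptor genes and pseudogenes, 1 had KDM3B in control cells (OR5A2), none in depleted cells, 1 had H3K9me2 in control cells (OR10W1) and 5 in depleted cells. Of 578 in the rest, 15 and 6 had KDM3B and 10 and 43 had H3K9me2. Of 35 ANKRD genes, 3 and 2 had KDM3B in control and depleted cells and 0 and 6 had H3K9me2. Of 77 in the rest, 13 and 7 had KDM3B and 5 and 40 had H3K9me2. The 6 POTE genes and 3 kappa segments of the rest had no region of any list.

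Many zinc finger genes encode KRAB repressors. Of 86 in the flanks, 20 had KDM3B in control and 7 in depleted cells, and 3 and 17 had H3K9me2. In the rest 112 and 52 of 413 had KDM3B and 9 and 118 had H3K9me2. For comparison, 22.7% of all protein-coding genes of the flanks had KDM3B in control cells and 32.1% had H3K9me2 in depleted cells. The 3 flank genes with H3K9me2 in control cells, ZNF688, ZNF764 and ZNF785, are neighbours on the short arm of chromosome 16. They had 200, 300 and 500 covered bases in control and 900, 1000 and 1100 in depleted cells, and no KDM3B in either. ZNF25 (200 and 100 bases), ZNF408 (200 and 100), ZNF771 (300 and 200) and ZNF843 (200 and 100) had KDM3B in both cell populations. None of the 29 autosomal Wnt target genes listed for this study lay in the flanks.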

How the data were processed

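HCT116/Scrsh and HCT116/ABsh-1 cells were profiled by ChIP-seq for KDM3B and H3K9me2, with 1 library each. The authors aligned 50-base reads to hg19 with Bowtie (submitters' processing notes, version not given in the sources used here), kept reads with a single genomic position, used each position once, and scanned 100-bp windows for Poisson excess over input. They deposited positions and a score per region. The deposited score has no stated meaning. The lists give no read numbers, so depth is unknown. The 2 input libraries were not analysed here.

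The members and lists were chosen with earlier results of these data known. Regions were placed by their centres on the GRCh37 assembly, whose chromosome lengths match hg19, with genes from GENCODE release 44. Densities used assembled bases. Ratios, odds ratios and shares carry exact 95% intervals (scipy 1.17.1). Unique 50-base sequences were sampled at 1 in 16 positions, as exact matches on both strands of the assembled sequence only. Repeat limits and distance bands were set after seeing the data. The genes named are the 5 leading 5-kb TSS windows for KDM3B in control cells and for H3K9me2 in each cell population, the genes at the 3 highest members per list, family members with a region, and genes of the 5 leading clusters, of which 1 is not reported here. Scripts were tested on simulated data. Alternatives were a 2 Mb flank, distance from the whole run of unassembled bases, merging below 1 kb, the higher-scoring 50% of each list, covered bases, unique bases, GC weighting in 10 kb bins, each autosome left out, other overlap and other TSS distances.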

Additional observations from a re-analysis of the deposited data

How the results depend on the processing

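No density ratio reached 1 under any alternative. For KDM3B in control cells it was 0.572 with a 2 Mb flank and 0.807 per unique base. For KDM3B in depleted cells it was 0.823 by covered bases and 0.820 per unique base. For H3K9me2 in control cells it was 0.693 from the edge of the whole unassembled run and 0.694 per unique base. For H3K9me2 in depleted cells it was 0.554 with a 2 Mb flank, 0.705 merged, 0.636 for the higher-scoring 50% of each list, 0.630 by covered bases, 0.756 per unique base and 0.765 with the rest weighted to flank GC. With each autosome left out it ranged from 0.672 to 0.773, 0.689 to 0.785, 0.580 to 0.656 and 0.597 to 0.723 in the 4 lists. The last range ran from without chromosome 22 to without chromosome 19.

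The odds ratio of the change in flanks against rest was 1.22 (0.987 to 1.51) with a 2 Mb flank for KDM3B, and 0.924 with a 2 Mb flank, 0.944 for the higher-scoring 50% of each list and 0.977 by covered bases for H3K9me2. For H3K9me2 it was 1.19 (1.07 to 1.32) after merging, an interval above 1, and 0.992 from the edge of the whole unassembled run. With each autosome left out it ranged from 0.979 to 1.04 for KDM3B and from 1.01 to 1.15 for H3K9me2. The KDM3B odds ratio within 0.5 Mb, whose alternatives were chosen after seeing the data, was 1.82 (1.11 to 2.94) after merging, 3.87 in the higher-scoring 50% of each list, and 2.07 to 2.89 with each autosome left out, lowest without chromosome 10. The repeat odds ratio was 1.35 for KDM3B at 60% identity and 7.22 in the higher-scoring 50%, and 3.76 to 5.18 for KDM3B and 0.166 to 0.226 for H3K9me2 with each autosome left out. The recurring share of KDM3B was 20.02% (21.2% in the rest) with an overlap of at least 50% of the region and 28.8% (31.6%) in the higher-scoring 50% of each list.

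Within 2 kb of a TSS lay 45.1%, 44.5%, 30.1% and 36.4% of members (41.2%, 42.7%, 22.6% and 34.6% of the rest), and within 5 kb of a protein-coding TSS 46.5%, 46.4%, 23.9% and 38.9% (43.3%, 45.1%, 22.1% and 41.7%). For H3K9me2 of depleted cells the last comparison turned, with members below the rest. No paired analysis was possible because the lists carry 1 library per condition and no test was made. Unknown depth, 1 library per condition and unanalysed input limit all comparisons between cells, and unassembled satellite could not be read.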
